A study of Mus musculus with 11 samples.

Results

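The expression of 10 genes that let circulating leukocytes attach to and cross the wall of blood vessels was followed in the hearts of 11 mice. The genes were chosen by name, as a set with a shared role, and earlier results of these data were known when they were chosen. They comprise the vessel selectins Sele and Selp, their leukocyte ligand Selplg, the immunoglobulin-type receptors Icam1, Icam2, Vcam1 and Pecam1, the endothelial cadherin Cdh5, and the leukocyte integrin subunits Itgb2 and Itgal. They are 10 of 55421 genes in the count table, and all 10 passed the filter on low counts in each comparison.

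All mice were C57BL/6J females aged 8 weeks, and whole-tissue RNA was sequenced. Of the 11, 8 had a myocardial infarction (MI) by permanent ligation of the left anterior descending coronary artery and gave tissue of the infarct and its border zone 3 days later. In 4 of them an osmotic minipump delivered 100 mg/kg of the hydroxamate GI254023X, which blocks the metalloprotease ADAM10 (A10i, mice A116, A117, A119 and A120), and in the other 4 it delivered the solvent DMSO alone (DMSO, mice A105, A127, A128 and A129). The 3 sham-operated mice (Sham, S1 to S3) received DMSO and gave healthy heart tissue, so surgery and sampled region cannot be told apart in any comparison with them. No sham-operated mouse received the inhibitor.

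Leukocytes leave the blood in steps. Selectins on activated endothelium bind carbohydrate-bearing ligands such as PSGL-1, the product of Selplg, and slow the cells to rolling. Integrins on the leukocyte then bind ICAM and VCAM receptors and hold the cell firmly, and PECAM-1 and VE-cadherin (Cdh5) lie at the endothelial junctions through which it crosses. Sele, Icam1 and Vcam1 are known to be transcribed in response to inflammatory cytokines, whereas P-selectin (Selp) is also stored in endothelial and platelet granules, and Icam2, Pecam1 and Cdh5 are made by resting endothelium.

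Between 21702623 and 29511768 reads were counted per mouse. Levels are given as CPM, the count of a gene relative to the library total, scaled by the trimmed mean of M-values (TMM), as mean ± SD. The libraries had the transcripts of heart tissue, with 10 cardiomyocyte markers adding up to 74460 to 76860 CPM in Sham mice, 36170 to 52330 in DMSO mice and 41530 to 57800 in A10i mice. Endothelial markers (20 genes, among them Kdr and Tie1) added up to 1538 to 1619 CPM in Sham mice, 1402 to 1518 in DMSO mice and 1554 to 1662 in A10i mice, with no gene at 0. Pan-leukocyte markers (15 genes, among them Ptprc and Coro1a) added up to 107 to 131 CPM in Sham mice, 251 to 530 in DMSO mice and 282 to 550 in A10i mice. In each infarcted group 1 mouse stood above the rest for these leukocyte markers, A129 with 530 CPM among the DMSO mice and A116 with 550 CPM among the A10i mice. In whole tissue, fewer cells of a type and less RNA per cell cannot be told apart.

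Of the 10 genes, 3 had a promoter in the RefSeq table used here (GRCm38.p6). None was at hand for the others, among them Vcam1, Icam2, Pecam1 and Cdh5, so motifs cannot be compared across the 10 genes. The 250 bases before the RefSeq start are shown 5′ to 3′ on the strand of the gene, all on the plus strand, for Sele (chr1:164047984-164048233), Selp (chr1:164115014-164115263) and Icam1 (chr9:21015690-21015939). Capitals mark matches on either strand to 5 short motifs.
Sele: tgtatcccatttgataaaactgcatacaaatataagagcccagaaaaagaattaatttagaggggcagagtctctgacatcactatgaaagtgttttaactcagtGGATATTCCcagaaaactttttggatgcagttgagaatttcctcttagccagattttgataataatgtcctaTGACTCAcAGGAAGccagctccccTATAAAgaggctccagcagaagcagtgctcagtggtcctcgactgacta
Selp: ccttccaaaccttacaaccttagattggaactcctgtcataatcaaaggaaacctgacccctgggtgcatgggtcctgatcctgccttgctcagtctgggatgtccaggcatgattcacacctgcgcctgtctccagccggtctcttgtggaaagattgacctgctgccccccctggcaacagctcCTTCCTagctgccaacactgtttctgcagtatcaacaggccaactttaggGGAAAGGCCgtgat
Icam1: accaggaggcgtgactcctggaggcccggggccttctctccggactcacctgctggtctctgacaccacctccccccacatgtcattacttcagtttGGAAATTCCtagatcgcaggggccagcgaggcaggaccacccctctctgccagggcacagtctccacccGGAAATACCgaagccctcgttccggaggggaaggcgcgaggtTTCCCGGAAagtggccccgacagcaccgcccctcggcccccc
The NF-kB-type motif GGNNNTTCC had a match in all 3 promoters, and 15.7% of 32851 promoters held one. In Sele it lay 145 to 137 bases before the start (GGATATTCC), in Selp 14 to 6 bases before it (GGAAAGGCC, on the minus strand) and in Icam1 153 to 145 bases (GGAAATTCC, on both strands) and 84 to 76 bases before it (GGAAATACC, on the minus strand). The AP-1 motif TGACTCA (in 4.46% of promoters) and the TATA motif TATAAA (12.4%) were found in Sele alone of the 3, and the ETS-type motif AGGAAG (29.5%) in Sele and Selp. The STAT-type motif TTCCNGGAA (0.913%) was found in Icam1 as TTCCCGGAA, 42 to 34 bases before the start. No motif overlapped another one. These matches describe the letters of the windows, and binding was not measured.

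The comparison of DMSO with Sham mice asks which adhesion genes are altered in the solvent-treated infarct on day 3. Of the 10 genes, 6 rose and 0 fell at an adjusted p under 0.01 (edgeR quasi-likelihood test), namely Sele, Selp, Selplg, Icam1, Vcam1 and Itgb2, beside 12.9% of 17117 genes tested that rose and 9.6% that fell. Their median log2 fold change was 1.12, against 0.00211 over all genes tested. Of all called genes 57.4% were higher. With library size alone as the scaling, the median over all genes was 0.208 and 82.5% of the called genes were higher, and the same 6 of the 10 genes were called. The remaining 4 were Icam2, Pecam1, Cdh5 and Itgal. Without mouse S2, Selplg no longer passed (adjusted p = 0.0103) and 5 genes were called, and without the filter on low counts Itgb2 no longer passed (adjusted p = 0.0143). DESeq2 called 7 genes, with Itgal as the seventh, and limma-voom called 6.

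**Figure D1:**
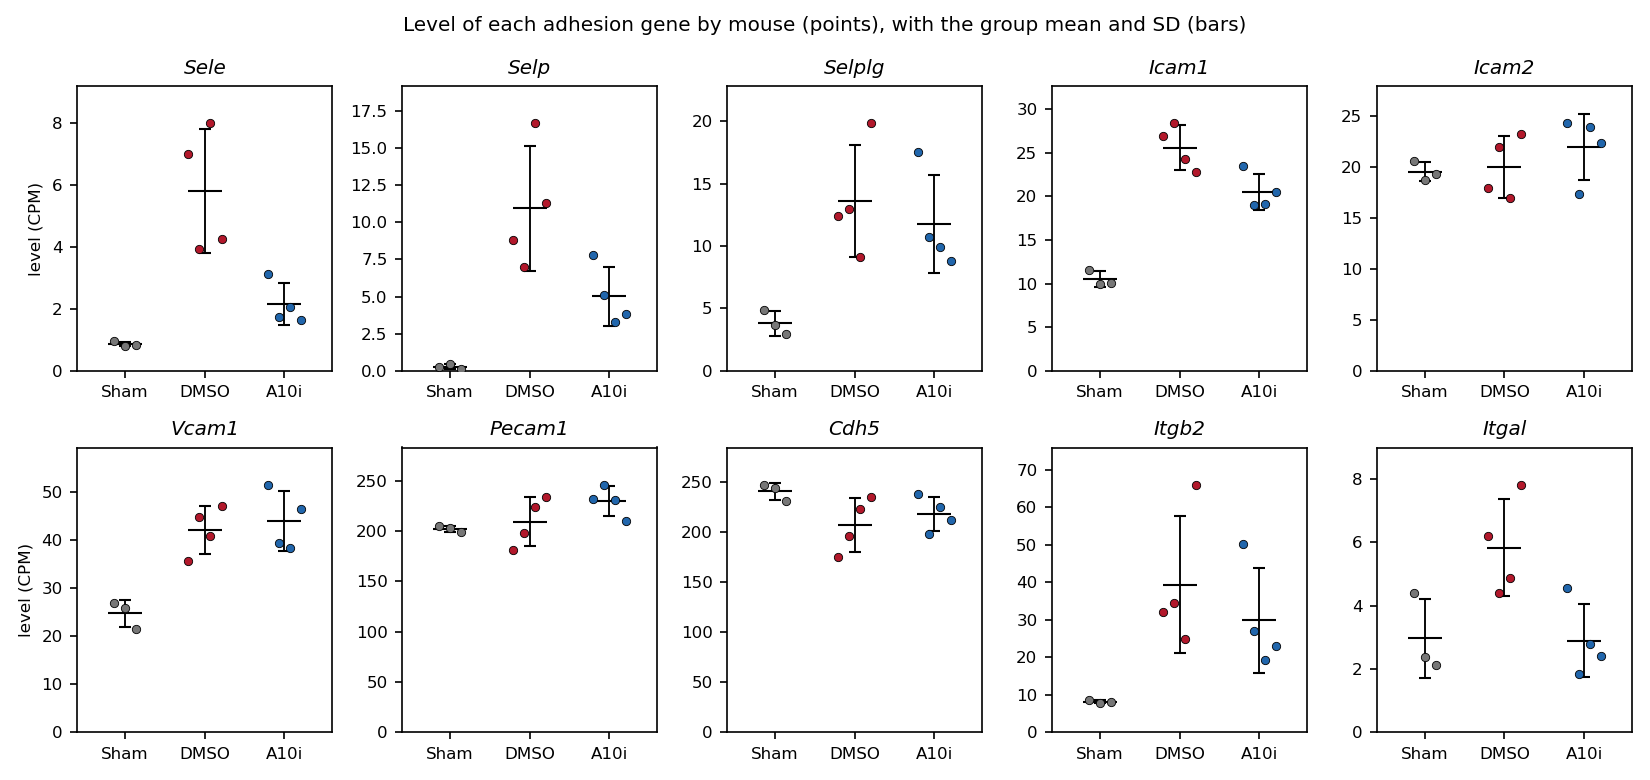
Level of each of the 10 genes in CPM (y axis, from 0) in every mouse of the Sham, DMSO and A10i groups (points), with the group mean and SD (bars). Sele, Selp, Selplg, Icam1, Vcam1 and Itgb2 lay above the Sham mice in every infarcted mouse, whereas Icam2 and Cdh5 overlapped between all groups.

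The vessel selectins had the lowest levels of the 10 genes in healthy heart. Sele, which encodes E-selectin, the rolling receptor of cytokine-activated endothelium (ENSMUSG00000026582, mm10 chr1:164048234-164057677), was at 0.957, 0.817 and 0.844 CPM in Sham mice S1, S2 and S3. It reached 6.98, 3.93, 7.98 and 4.26 CPM in DMSO mice A105, A127, A128 and A129. All 4 DMSO mice lay above all Sham mice, and they split into a higher pair (A105 and A128) and a lower pair (A127 and A129). The rise was 6.57-fold (95% interval 4.09 to 10.5, log2 2.72 ± 0.31 SE, adjusted p = 0.000277).

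Selp, which encodes P-selectin, the rolling receptor of endothelium and platelets (ENSMUSG00000026580, chr1:164115264-164150026), was at 0.261, 0.445 and 0.121 CPM in S1, S2 and S3, from only 3 to 12 counts per mouse. In DMSO mice it was at 8.80, 6.99, 16.7 and 11.3 CPM in the order A105, A127, A128 and A129, from 208 to 497 counts. It had the largest fold change of the 10 genes, 38.2-fold (95% interval 18.7 to 78.0, log2 5.26 ± 0.46 SE, adjusted p = 0.000136). Of 10 platelet and megakaryocyte markers, 4 were tested and 2 rose, Pf4 and Ppbp. The 10 markers summed to 12.1 to 15.7 CPM in Sham and 30.9 to 63.0 CPM in DMSO mice. In DMSO mice A105, A127, A128 and A129 this sum was 52.2, 36.1, 30.9 and 63.0 CPM. A128, highest for Selp, had the lowest sum, whereas A129, A105 and A127 had the same order for the sum and for Selp. Gp1bb was at 0 counts in every Sham mouse. The part of platelets in the Selp level was not tested. Selp shares 186 and 438 exonic bases with the antisense transcripts Gm16587 and Gm16548, and the strand setting of the counting is not stated in the sources used here.

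Selplg, the gene of the selectin ligand PSGL-1 on leukocytes (ENSMUSG00000048163, chr5:113818536-113832644), was at 4.92, 3.64 and 2.94 CPM in S1, S2 and S3. In the DMSO mice it was at 12.4, 13, 9.16 and 19.8 CPM, again listed from A105 to A129, so that A129, which had the most leukocyte transcripts, was highest. It rose 3.54-fold (95% interval 2.27 to 5.52, adjusted p = 0.00146).

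Among the immunoglobulin-type receptors, the inducible ones rose and the constitutive ones did not pass the test. Icam1, the endothelial and leukocyte ligand of the beta-2 integrins (ENSMUSG00000037405, chr9:21015985-21028817), was at 11.6, 9.91 and 10.1 CPM in Sham mice and at 27.0, 28.4, 24.3 and 22.8 CPM in DMSO mice A105, A127, A128 and A129. The replicates lay close together, with a coefficient of variation of 8.90% in Sham and 9.94% in DMSO mice. Icam1 rose 2.41-fold (95% interval 2.04 to 2.85, adjusted p = 8.57e-05), the smallest adjusted p of the 10 genes. Its exons share 511 bases with the antisense transcript Gm47079.

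Vcam1, the endothelial ligand of the alpha-4 integrins (ENSMUSG00000027962, chr3:116109949-116129688), was at 26.8, 25.9 and 21.6 CPM in Sham mice and at 35.6, 44.7, 40.8 and 47.1 CPM in the DMSO mice. The groups did not overlap, and Vcam1 rose 1.69-fold (95% interval 1.41 to 2.03, adjusted p = 0.0012). Its exons share 61 bases with the antisense transcript Gm43109.

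Icam2, a constitutive integrin ligand of resting endothelium (ENSMUSG00000001029, chr11:106377656-106388075), was at 19.6 ± 0.928 CPM in Sham (n = 3) and 20.1 ± 3.05 CPM in DMSO mice (n = 4). Pecam1, the junctional receptor PECAM-1 or CD31 (ENSMUSG00000020717, chr11:106654217-106750628), was at 202 ± 2.80 and 209 ± 24.1 CPM. Cdh5, the VE-cadherin of endothelial adherens junctions (ENSMUSG00000031871, chr8:104101625-104144511), was at 240 ± 8.83 and 207 ± 27.0 CPM. None of the 3 passed (adjusted p = 0.87, 0.788 and 0.145). Their 95% intervals ran from 0.841 to 1.24-fold for Icam2, from 0.872 to 1.21-fold for Pecam1 and from 0.717 to 1.02-fold for Cdh5. A change inside those bounds remains possible.

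The integrin subunits differed from each other. Itgb2, the beta-2 chain (CD18) shared by the leukocyte integrins LFA-1 and Mac-1 (ENSMUSG00000000290, chr10:77530252-77565708), was at 8.53, 7.87 and 8.20 CPM in Sham mice. It was at 32.1, 34.4, 25.0 and 66.1 CPM in DMSO mice A105, A127, A128 and A129. All 4 lay above all Sham mice, and A129 stood well above the other 3. Itgb2 rose 4.78-fold (95% interval 2.87 to 7.97, adjusted p = 0.00109). Itgal, the alpha-L chain of LFA-1, a receptor of lymphocytes and other leukocytes (ENSMUSG00000030830, chr7:127296260-127335138), was at 4.40, 2.38 and 2.13 CPM in Sham mice and at 6.18, 4.40, 4.86 and 7.81 CPM in DMSO mice. The lowest DMSO mouse, A127, and Sham mouse S1 were level to 3 digits, and the difference (1.95-fold, 95% interval 1.24 to 3.08) missed the threshold of 0.01 with an adjusted p of 0.0264.

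A10i and Sham mice were compared to ask which of these genes stand above healthy heart under the inhibitor. This comparison uses the same 3 Sham mice as the previous one. Again 6 of the 10 genes rose and 0 fell, beside 13.7% of 16971 genes tested that rose and 9.11% that fell, with a median log2 fold change of 0.90 against -0.00536 over all genes. Of all called genes 60.1% were higher, and 85.6% with library size alone as the scaling, where the median over all genes was 0.181. Sele stood 2.47-fold above Sham (95% interval 1.61 to 3.77, adjusted p = 0.00459), Selp 17.7-fold (8.74 to 35.8, adjusted p = 0.000325) and Selplg 3.09-fold (2.01 to 4.74, adjusted p = 0.00214). Icam1 stood 1.96-fold above Sham (1.67 to 2.30, adjusted p = 0.00024), Vcam1 1.78-fold (1.48 to 2.14, adjusted p = 0.000868) and Itgb2 3.67-fold (2.18 to 6.16, adjusted p = 0.00297).

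The other 4 genes were not called above or below Sham in A10i mice. Pecam1 was 1.14-fold the Sham level (95% interval 1.01 to 1.28, adjusted p = 0.0758), Icam2 1.13-fold (0.946 to 1.35) and Cdh5 0.909-fold (0.802 to 1.03). Itgal was at 2.90 ± 1.16 CPM against 2.97 ± 1.24 CPM in Sham mice, 0.986-fold with a wide interval of 0.578 to 1.68. With library size alone the log2 values of Cdh5 and Itgal turned positive (0.0528 and 0.18) and Pecam1 passed the threshold (adjusted p = 0.00345). The number of calls depended on the Sham mice: 4 genes were called without S1, 3 without S2 and 3 without S3, where Sele, Selplg or Itgb2 had adjusted p-values of 0.0109 to 0.024. Sele (adjusted p = 0.0104) also missed the threshold in a joint fit of all 11 libraries, and Selplg (0.0119) and Itgb2 (0.0266) missed it without the filter.

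**Figure D2:**
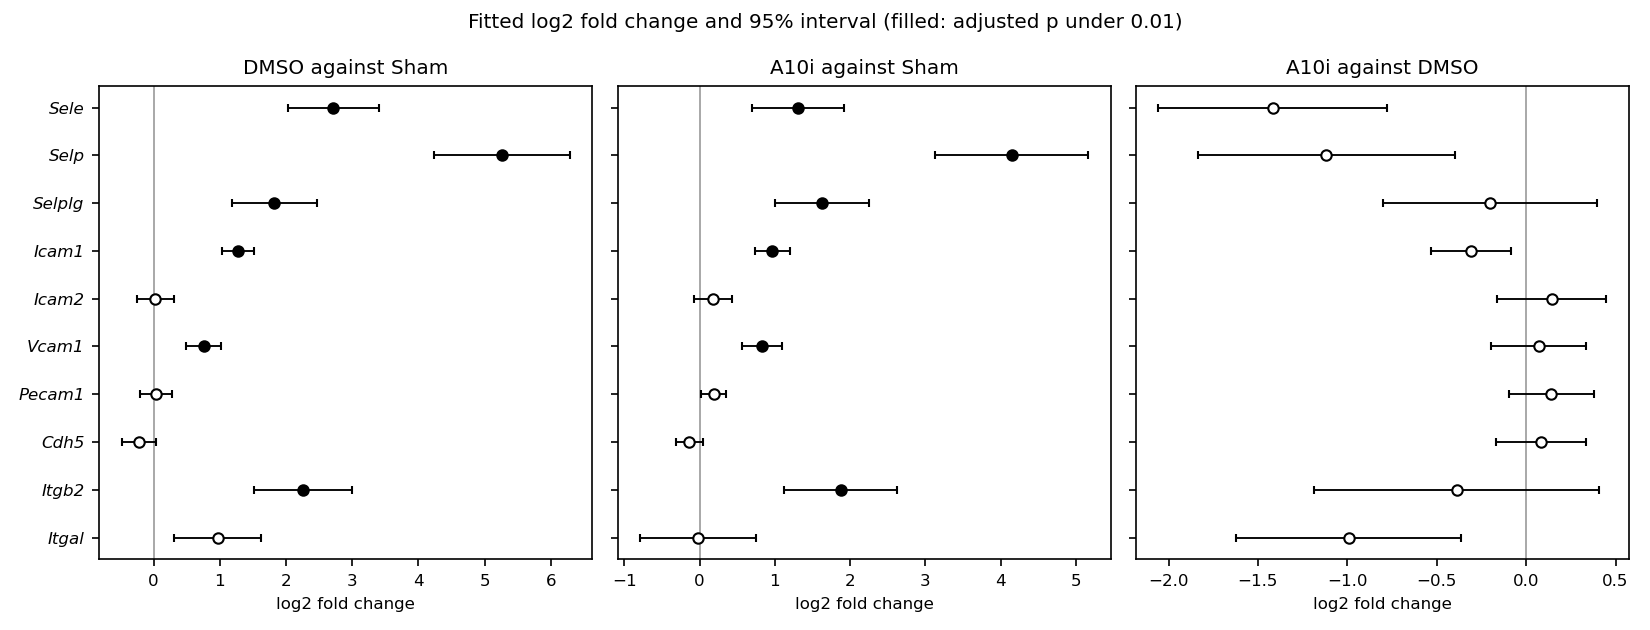
Log2 fold change (x axis) of each gene in the 3 comparisons with its 95% interval (bars), where filled points had an adjusted p under 0.01 in edgeR's test. Sele, Selp, Selplg, Icam1, Vcam1 and Itgb2 are filled in each comparison with the shared Sham mice, and no point is filled for A10i against DMSO, where Sele, at -1.42, lies farthest from 0.

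The direct comparison of A10i with DMSO mice asks whether the inhibitor alters these genes in the infarct. edgeR called none of the 10 genes at an adjusted p under 0.01, and it called 0 of 16792 genes tested (0%). In this comparison a 0 called by edgeR in any list below therefore says nothing particular to that list. At an unadjusted p under 0.05, 4 of the 10 genes were lower (Sele, Selp, Icam1 and Itgal) and 0 were higher, where 6.73% of all genes tested were lower and 7.1% higher. limma-voom called 0 of the 10 genes and 0 of all genes, whereas DESeq2 called 231 genes, with Sele as the 1 among them of these 10 genes. The median log2 fold change of the 10 genes was -0.26, against 0.00343 over all genes tested, and 6 of them had a negative and 4 a positive value.

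Sele had the smallest adjusted p of the 10 genes in this comparison. It was at 3.12, 1.74, 2.07 and 1.66 CPM in A10i mice A116, A117, A119 and A120, and the highest of these, A116, was below the lowest DMSO mouse, A127, at 3.93 CPM. Sele was the only one of the 10 genes whose A10i and DMSO mice did not overlap, and 4.4% of all genes tested were lower and 3.78% higher without overlap. The level was 2.67-fold lower in A10i mice (log2 -1.42 ± 0.29 SE, 95% interval -2.06 to -0.78, unadjusted p = 0.000578). The adjusted p was 0.0931 in edgeR, 0.111 in limma-voom and 0.000528 in DESeq2. The exact permutation test over the mice, two-sided, gave p = 0.0286, the smallest that 4 against 4 mice allow.

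Selp was at 7.79, 5.10, 3.31 and 3.85 CPM in A116, A117, A119 and A120. Only A116 reached into the DMSO range, above A127 at 6.99 CPM. The log2 difference was -1.12 ± 0.32 SE (95% interval -1.84 to -0.40), with an adjusted p of 0.181 and an exact permutation p of 0.0571. Summed platelet markers lay at 26.0 to 58.6 CPM in A10i and 30.9 to 63.0 CPM in DMSO mice, ranges that overlapped almost fully. Within the A10i mice the sum had the same order as Selp, at 58.6, 32.2, 26.0 and 29.4 CPM in A116, A117, A119 and A120. The part of platelets in the Selp values was not tested.

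Itgal was at 4.54, 1.85, 2.77 and 2.42 CPM in A116, A117, A119 and A120, and again only A116 overlapped the DMSO mice, of which A127 was lowest at 4.40 CPM. The log2 difference was -0.99 ± 0.28 SE (95% interval -1.62 to -0.36, adjusted p = 0.173, exact permutation p = 0.0571). The A10i mean of 2.90 CPM was close to the Sham mean of 2.97 CPM, within the wide interval given above.

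Icam1 was at 23.5, 19.0, 19.2 and 20.5 CPM in A116, A117, A119 and A120. A116 was above the lowest DMSO mouse, A129, at 22.8 CPM. The log2 difference of -0.31 ± 0.10 SE (95% interval -0.53 to -0.09) was small, and its adjusted p was 0.22.

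The other 6 genes had adjusted p-values of 0.6 to 0.839 between A10i and DMSO mice. Selplg was at 11.8 ± 3.94 CPM in A10i and 13.6 ± 4.48 CPM in DMSO mice, and Itgb2 at 29.9 ± 14.0 and 39.4 ± 18.2 CPM. Both spread widely within a group because A116 and A129 were high. Vcam1 was at 43.9 ± 6.19 and 42.1 ± 5.02 CPM, and its interval of 0.874 to 1.26-fold bounds any difference from DMSO. Icam2 (22.02 ± 3.23 and 20.1 ± 3.05 CPM), Pecam1 (229 ± 14.9 and 209 ± 24.1 CPM) and Cdh5 (218 ± 16.9 and 207 ± 27.0 CPM) had intervals of 0.892 to 1.37-fold, 0.937 to 1.30-fold and 0.889 to 1.26-fold. Among the vessel receptors, Sele and Selp had intervals wholly below that of Vcam1, at 0.240 to 0.583-fold and 0.280 to 0.760-fold. The interval of Icam1, 0.692 to 0.942-fold, overlapped that of Vcam1. The difference between these genes was not itself tested.

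Levels were also set against cell type markers of the same library, as the log2 level of a gene minus the mean log2 level of the 20 endothelial or the 15 pan-leukocyte markers, with an exact permutation test over the mice, two-sided and unadjusted, 20 tests a comparison and 60 in all. Relative to endothelial markers, Sele was at -2.82, -3.78, -2.72 and -3.70 in DMSO mice A105, A127, A128 and A129 and at -4.30, -5.00, -4.86 and -5.11 in A10i mice A116, A117, A119 and A120. The difference was -1.56 (exact permutation p = 0.0286, n = 4 mice each). Selp differed by -1.30, Itgal by -1.21 and Icam1 by -0.50, each with an exact permutation p of 0.0286 and no overlap between the groups. With these markers as the reference, 4 of the 10 genes were lower without overlap, where 17.5% of all genes tested were, and the endothelial markers themselves had a mean log2 level 0.18 higher in A10i than in DMSO mice.

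Relative to pan-leukocyte markers, 4 of the 10 genes were lower in A10i than in DMSO mice without overlap, Sele (-1.29), Selp (-1.03), Itgal (-0.94) and Itgb2 (-0.31), where 0.84% of all genes tested were. Each had an exact permutation p of 0.0286, the smallest possible. The value of Selp was -0.648 without DMSO mouse A128. For Itgb2 the p was 0.0571 when the markers were summed in place of averaged on the log2 scale. Itgb2 was at 1.13, 1.02, 1.06 and 1.41 in the DMSO mice and at 1.02, 0.99, 0.57 and 0.81 in the A10i mice, so that A116 and A127 were level to 2 decimals. Itgal was at -1.23, -1.92, -1.28 and -1.66 in the DMSO mice and at -2.43, -2.82, -2.19 and -2.40 in the A10i mice. In this scale A116, high in leukocyte markers, no longer stood out for Itgal. Selplg differed by -0.12 and its groups overlapped.

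**Figure D3:**
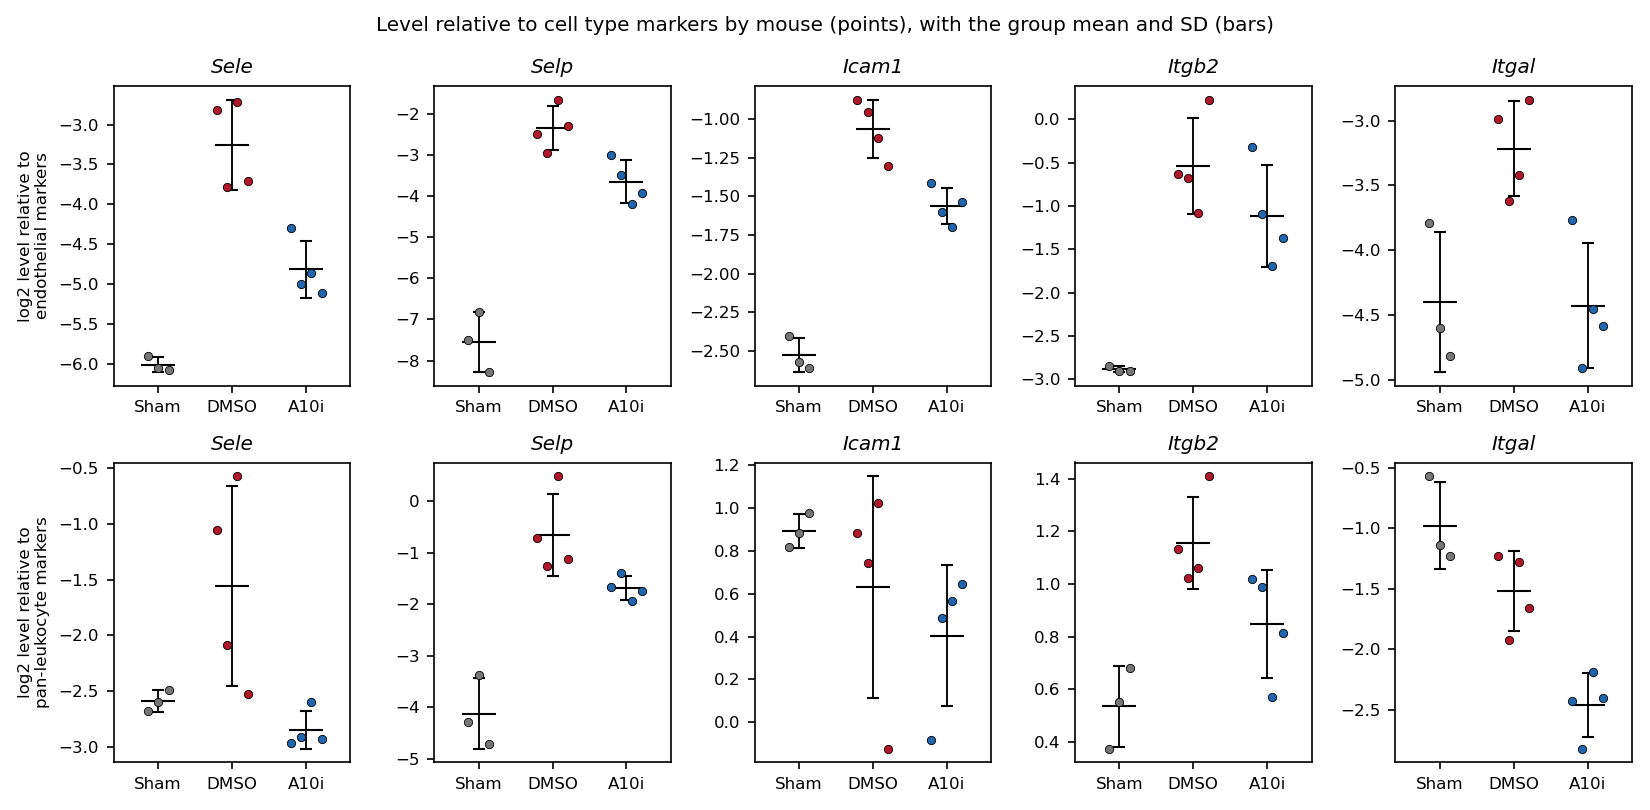
Log2 level of 5 genes relative to endothelial markers (upper row) and pan-leukocyte markers (lower row) in every mouse (points), with the group mean and SD (bars). Sele, Selp and Itgal are lower without overlap in A10i than in DMSO mice in both rows, Icam1 in the upper and Itgb2 in the lower row.

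The infarcted mice were compared with Sham mice on the same scale. In DMSO mice 8 of the 10 genes were higher relative to endothelial markers without overlap (37.8% of all genes tested), and in A10i mice 7 were (25.1%). Relative to pan-leukocyte markers, 3 genes were higher without overlap in DMSO mice (Selp, Selplg and Itgb2, beside 1.82% of all genes) and 5 lower (86.7%, with Itgal level to 2 decimals between A105 and S3), and in A10i mice 1 was higher (Selp, beside 1.93%) and 6 lower (87.3%). With 3 against 4 mice the exact permutation p cannot go below 0.0571, so none of these passed 0.05. Selp was thus higher in both infarcted groups on both scales, by 5.19 and 3.46 in DMSO and by 3.89 and 2.43 in A10i mice. Sele in A10i mice was 1.19 above Sham relative to endothelial markers and -0.26 from it, with overlap, relative to pan-leukocyte markers. The pan-leukocyte markers themselves had a mean log2 level 1.44 higher in A10i than in Sham mice, so this last value does not mean that Sele was unraised. Its level in CPM stood 2.47-fold above Sham.

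The neutrophil markers had lower values in A10i than in DMSO mice, as did Sele and Selp. This list was chosen with earlier results of these data known. Of its 12 genes, 8 were tested. All 8 were lower in A10i than in DMSO mice at an unadjusted p under 0.05, where 6.73% of all genes tested were. Their median log2 fold change was -1.82, although edgeR called 0 of them and DESeq2 called 5. The 12 genes summed to 1.19 to 2.26 CPM in Sham mice, 76.9 to 155 in DMSO mice and 14.8 to 53.2 in A10i mice. S100a8, a calcium-binding protein abundant in neutrophils, was at 0.0817 ± 0.0456 CPM in Sham mice, 27.2 ± 6.33 in DMSO mice and 6.76 ± 3.25 CPM in A10i mice, and its partner S100a9 at 0.206 ± 0.114, 30.8 ± 6.86 and 7.90 ± 3.53 CPM. Mmp8, the neutrophil collagenase, was at 0.0402 ± 0.0697, 8.10 ± 1.83 and 3.94 ± 2.22 CPM. Ly6g, Trem1 and Mrgpra2b were at 0 counts in all Sham mice, where a count of 0 allows up to 3 counts per library, and no marker was at 0 in an infarcted group. The part of neutrophil number in the values of the 10 genes was not tested.

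The pan-leukocyte markers had a median near 0 between the infarcted groups. Of 15 genes, 12 rose in DMSO and 13 in A10i against Sham mice, beside 12.9% and 13.7% of all genes tested. Between A10i and DMSO mice 0 of 15 were called, and their median log2 fold change was -0.02. Lcp1, the leukocyte plastin, was at 24.3 ± 1.97, 97.5 ± 27.8 and 86.8 ± 35.8 CPM in Sham, DMSO and A10i mice. Rac2, a GTPase of leukocytes, and Coro1a, a leukocyte actin-binding protein, rose in both infarcted groups (log2 2.23 and 2.08 in DMSO, 1.98 and 1.87 in A10i mice). Cytip, an adaptor of leukocyte adhesion, was at 6.10 ± 2.75 CPM in DMSO and 3.15 ± 1.33 CPM in A10i mice (adjusted p = 0.284). Of 15 monocyte and macrophage markers, 11 rose in DMSO and 13 in A10i against Sham mice, among them Chil3, Plac8 and Cd68, and 14 of 15 had a positive log2 fold change between A10i and DMSO mice (median 0.36, 0 called). Chil3, a chitinase-like protein of monocytes and neutrophils, was the exception at 51.2 ± 32.9 CPM in DMSO and 12.5 ± 7.23 CPM in A10i mice (adjusted p = 0.156), and C1qc was at 61.9 ± 10.8 and 88.9 ± 13.5 CPM. At an unadjusted p under 0.05, 5 of these 15 markers were higher and 1 was lower in A10i mice, where 7.1% and 6.73% of all genes tested were.

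Few endothelial markers were raised in the infarct. In DMSO against Sham mice 1 of 20 rose (Nos3, the endothelial nitric oxide synthase, log2 0.50) and 7 fell, among them Tie1 (log2 -0.54) and Ushbp1 (log2 -0.79), with a median of -0.24. In A10i against Sham mice 2 rose and 2 fell. Over all genes tested, 12.9% rose and 9.6% fell in DMSO, and 13.7% rose and 9.11% fell in A10i against Sham mice. Between A10i and DMSO mice 16 of 20 had a positive value (median 0.16, 0 called by edgeR and 2 by DESeq2). At an unadjusted p under 0.05, 5 of the 20 were higher and 2 lower in A10i mice, where 7.1% and 6.73% of all genes tested were. Kdr, the main VEGF receptor, was at 148 ± 3.24, 116.7 ± 7.66 and 171 ± 28.9 CPM in Sham, DMSO and A10i mice, and Clec14a, an endothelial lectin-like receptor, at 26.0 ± 3.34, 17.0 ± 2.55 and 26.1 ± 3.54 CPM. Among the 10 genes, Vcam1 (0.07), Icam2 (0.14), Pecam1 (0.14) and Cdh5 (0.08) also had positive log2 values between these groups, and Sele (-1.42), Selp (-1.12) and Icam1 (-0.31) had negative ones. The part of endothelial content in these values was not tested.

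Cytokine genes and the NF-kB pathway, which drive Sele, Icam1 and Vcam1 in cultured endothelium, were followed as 19 genes. In DMSO against Sham mice 15 of 19 rose and 0 fell (median 0.95), beside 12.9% and 9.6% of all genes tested. In A10i against Sham mice 12 of 18 tested rose (median 0.90), beside 13.7%. Bcl3, an atypical inhibitor of NF-kB, rose from 2.50 ± 0.523 to 15.1 ± 2.10 CPM, the TNF receptor Tnfrsf1a from 37.8 ± 0.437 to 84.1 ± 7.29 CPM and the interleukin-1 receptor Il1r1 from 16.2 ± 0.729 to 51.9 ± 8.33 CPM in DMSO mice. Between A10i and DMSO mice 15 of 18 had a negative value, with a median of -0.19 and 0 called. At an unadjusted p under 0.05, 7 of the 18 were lower, where 6.73% of all genes tested were. Il1b, the cytokine interleukin-1 beta, was at 1.82 ± 1.38 CPM in A10i and 6.51 ± 2.28 CPM in DMSO mice (log2 -1.82, adjusted p = 0.14 in edgeR and 0.00243 in DESeq2). Rela, the p65 subunit of NF-kB, was at 37.2 ± 2.54 and 44.5 ± 2.57 CPM (adjusted p = 0.205).

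Of the other selectins, selectin ligands and the enzymes that glycosylate them, more rose than fell against Sham mice, and the falls were near the share of all genes. In DMSO against Sham mice 4 of 15 tested rose and 2 fell (median 0.31), beside 12.9% and 9.6% of all genes tested. In A10i against Sham mice 4 rose and 1 fell, beside 13.7% and 9.11%. Cd44, a hyaluronan receptor and E-selectin ligand, rose from 10.5 ± 0.812 CPM in Sham to 63.2 ± 15.5 CPM in DMSO mice, and B4galt1, a galactosyltransferase, from 114.5 ± 3.52 to 207 ± 11.7 CPM, whereas the sialyltransferase St3gal6 fell from 39.2 ± 1.499 to 23.4 ± 2.77 CPM. Between A10i and DMSO mice 0 of 15 were called by edgeR (median 0.06). St3gal4, which sialylates selectin ligands, was at 33.0 ± 1.24 CPM in A10i and 25.2 ± 1.14 CPM in DMSO mice (adjusted p = 0.0707 in edgeR and 0.000461 in DESeq2), and Cd34, a mucin of endothelium, at 193 ± 7.07 and 152 ± 20.6 CPM. Glycam1 was at 0 counts in all Sham and A10i mice and Madcam1 at 0 counts in all Sham and DMSO mice, so the specialised lymph node and gut selectin and integrin ligands were not detectable in most of these hearts.

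Among 18 other leukocyte integrins and their activators, 9 of 15 tested rose and 2 fell in DMSO against Sham mice (median 0.995), beside 12.9% and 9.6% of all genes tested. In A10i against Sham mice 9 of 16 rose and 1 fell, beside 13.7% and 9.11%. Itgam, the alpha-M chain that pairs with Itgb2 in Mac-1 of neutrophils and monocytes, rose from 2.603 ± 0.442 CPM in Sham to 27.4 ± 10.95 CPM in DMSO mice and 16.9 ± 6.61 CPM in A10i mice. Rap1b, a GTPase that activates integrins, and the adaptor Skap2 rose in DMSO mice by 0.99 and 0.995 on the log2 scale. Between A10i and DMSO mice 0 of 16 were called (median -0.02), Itgam with a log2 value of -0.69 (adjusted p = 0.362) and the low-count Itgae with 1.22 (adjusted p = 0.183).

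Of other immunoglobulin-type and transmigration molecules, 5 of 15 tested were raised and 1 lowered in DMSO against Sham mice, beside 12.9% and 9.6% of all genes tested. In A10i against Sham mice 5 were raised and 2 lowered, beside 13.7% and 9.11%. Cd177, a neutrophil partner of PECAM-1, was at 0.0145 ± 0.0251, 1.92 ± 0.770 and 0.608 ± 0.249 CPM in Sham, DMSO and A10i mice. Pvr, a nectin-like receptor of endothelium, was at 35.3 ± 1.28, 64.5 ± 9.49 and 43.2 ± 4.27 CPM, without overlap between A10i and DMSO mice and with an adjusted p of 0.0931 in edgeR and 0.0034 in DESeq2. Mcam, the adhesion molecule CD146, rose from 39.9 ± 1.74 to 106 ± 28.9 CPM in DMSO mice. None of the 15 was called by edgeR between A10i and DMSO mice (median 0.06), and DESeq2 called 2.

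Endothelial junction genes had a median log2 fold change of 0.02 in DMSO against Sham mice. Of 15, 3 were raised and 4 lowered, beside 12.9% and 9.6% of all genes tested. The lowered genes with the smallest p-values were the cytoplasmic linkers Afdn (log2 -0.69), Tjp1 (-0.54) and Pkp4 (-0.56). In A10i against Sham mice 4 rose and 3 fell, beside 13.7% and 9.11% of all genes tested. Between A10i and DMSO mice 0 were called (median 0.14), with Afdn at 0.22 and the tight junction gene Cgn at 0.72. Of 5 genes of proteases that can cleave adhesion molecules from the cell surface, Mmp9 and Adam8 rose in DMSO against Sham mice (log2 4.23 and 5.62) and Adam8 alone of 4 tested rose in A10i against Sham mice. Mmp9 was at 16.3 ± 5.07 CPM in DMSO and 4.52 ± 2.74 CPM in A10i mice (adjusted p = 0.121), and Adam17 at 47.2 ± 5.15 and 52.6 ± 6.82 CPM. Elane was at 0 counts in all 11 libraries. Transcript levels do not report the amount of shed protein, which was not measured in these libraries.

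**Figure D4:**
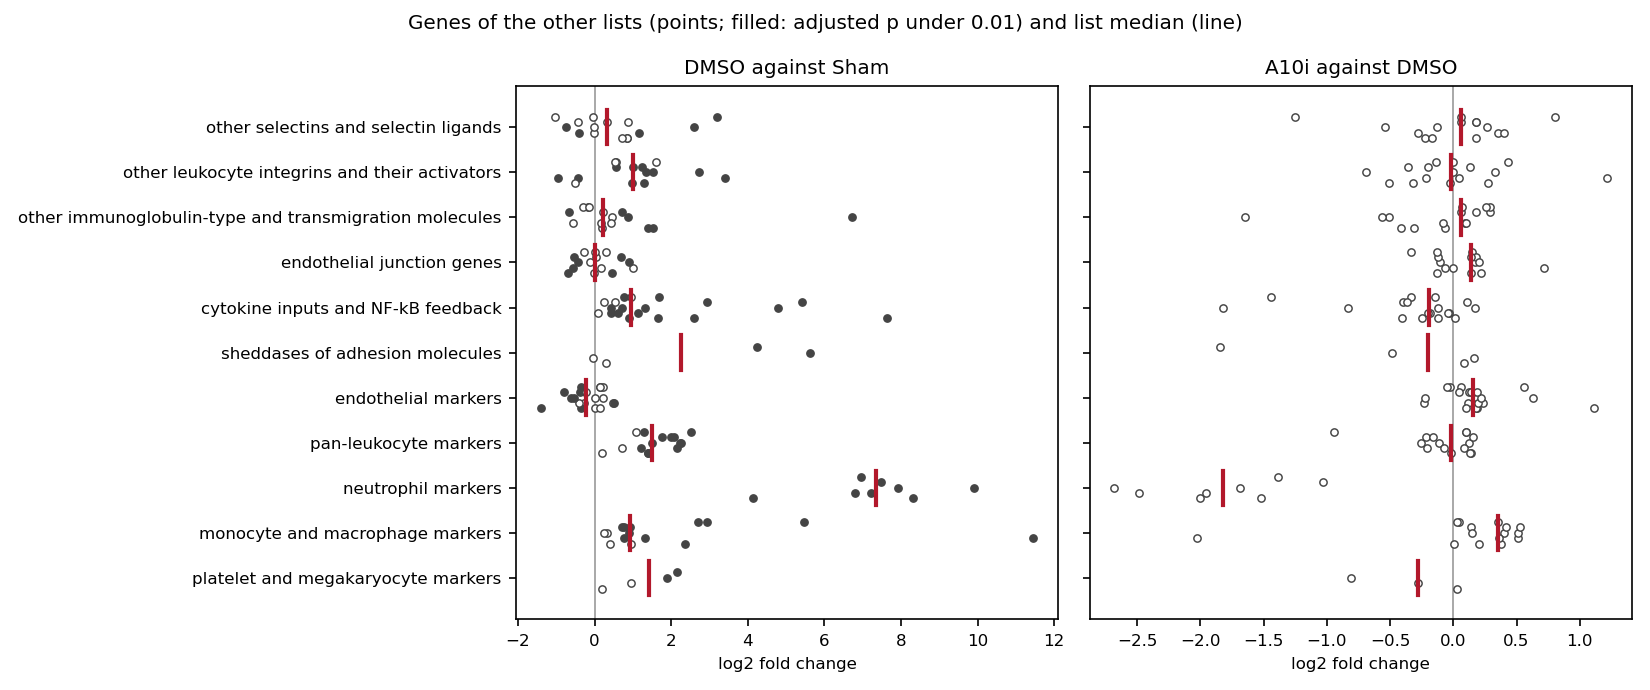
Log2 fold change (x axis) of each tested gene of 11 gene lists (points, filled at an adjusted p under 0.01) with the list median (line), in DMSO against Sham and in A10i against DMSO mice. The median of the neutrophil markers (8 of 12 tested) is 7.35 on the left and -1.82 on the right. They summed to at most 2.26 CPM in Sham mice, so those on the left passed the low-count filter mainly through DMSO mice. The median of the pan-leukocyte markers is 1.51 on the left and -0.02 on the right.

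edgeR called 0 of all genes tested between A10i and DMSO mice, and hence 0 in each of the other cell type lists. Their median log2 fold change there was 0.54 for 9 fibroblast markers, 0.19 for 10 cardiomyocyte markers, 0.17 for 8 mural cell markers, 0.21 for 6 lymphatic endothelial markers and 0.64 for 5 red blood cell transcripts. T and NK cell markers (2 of 12 tested) and B cell markers (1 of 6 tested) were near the limit of detection, with summed levels of 1.28 to 3.09 CPM and 0.403 to 2.41 CPM in DMSO mice and 2.86 to 4.43 CPM and 0.772 to 2.81 CPM in A10i mice. In DMSO against Sham mice 4 of the fibroblast markers rose, 5 each of the cardiomyocyte and mural cell markers fell, and 1 lymphatic marker, Pdpn, rose (log2 2.84). The T and NK cell markers Trac and Cd4 were at 0.690 ± 0.254 and 1.152 ± 0.168 CPM in A10i and 0.286 ± 0.112 and 0.767 ± 0.290 CPM in DMSO mice, and edgeR called neither.

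Divided by exonic length, the levels of the 10 genes can be ranked within a group. In CPM per kilobase, Cdh5 was highest in all groups (57.2 in Sham mice, 49.3 in DMSO mice and 51.9 in A10i mice) and Pecam1 next (32.5, 33.6 and 36.8), and neither overlapped its neighbour in any group. In Sham mice Icam2 (10.3), a cluster of Vcam1 (2.79), Itgb2 (2.69) and Icam1 (2.42), and then Selplg (0.897) followed. Vcam1 and Itgb2 overlapped, as did Itgb2 and Icam1. Itgal (0.452) and Sele (0.300) overlapped below these, and Selp was last (0.0625).

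In DMSO mice Itgb2 (12.9) stood at the level of Icam2 (10.5), with which it overlapped, and was followed by Icam1 (5.87), Vcam1 (4.74), Selplg (3.19), Selp (2.48) and Sele (1.99). Of these 5, Icam1, Vcam1, Selplg and Selp each overlapped the next, and Itgal (0.885) lay lowest, below Sele without overlap. In A10i mice the order was Icam2 (11.6), Itgb2 (9.81), Vcam1 (4.95), Icam1 (4.71), Selplg (2.75), Selp (1.14), Sele (0.737) and Itgal (0.441). Of these neighbours, Icam2 with Itgb2, Vcam1 with Icam1, Selp with Sele and Sele with Itgal overlapped. Selp thus moved from last place in Sham above Sele and Itgal in both infarcted groups.

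The genes most like each of the 10 over the 11 libraries were found by the root-mean-square difference of their log2 levels, centred on each gene's mean, among 17480 genes. Closest to Sele were Gm13889 (0.30), Ankrd1 (0.355) and Il1a (0.40), and closest to Selp were Ccl7 (0.30), Ccl2 (0.375) and Il6 (0.51). Plek (0.145), Gm6201 (0.15) and Lcp2 (0.15) were closest to Selplg. Lilr4b (0.12), Tgfbi (0.145) and C5ar1 (0.15) were closest to Itgb2. For Icam1 these were Tlr4 (0.14), Ifitm3 (0.15) and Carhsp1 (0.165), for Vcam1 Sh3bgrl, Rbbp8 and Il3ra (0.08 to 0.10) and for Itgal Ccn1, D030028A08Rik and Dctd (0.28 to 0.30). Icam2 had BC017158, Fli1 and Cdc42ep2 (0.08 to 0.09), Pecam1 had Slc38a10 and Socs5, and Cdh5 had Hps5, Sp1 and Mfsd6 (0.06 to 0.08 for both). Small differences come easily to genes that vary little, since Pecam1 and Cdh5 had an SD of 0.133 and 0.155 over the libraries, against 1.13 for Sele and 2.19 for Selp. Within the 10, Selplg and Itgb2 were nearest to each other (0.26), as were Icam1 and Vcam1 (0.27) and Pecam1 and Cdh5 (0.16), while Sele was 0.65 from its nearest, Icam1, and Selp 1.22 from Sele.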

How the data were processed

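Poly(A) RNA of 11 mouse hearts (3 Sham, 4 DMSO, 4 A10i) was sequenced with a strand-specific kit. The authors aligned the reads with GSNAP to mm10 and deposited raw counts per gene of uniquely aligned reads from featureCounts 2.0.1. The strand setting is not given in the sources used here. The 92 spike-in rows (397 counts, at most 0.000194% of a library) were left out, and no columns lacked a sample.

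Groups came from the sample labels, the mouse being the replicate. Each comparison was fitted on its own groups with edgeR 4.0.16 (R 4.3.3) after filterByExpr and TMM scaling, by the quasi-likelihood test with Benjamini-Hochberg adjustment over all genes tested and a threshold of 0.01. The prior count of log2 levels was 2. Alternatives were DESeq2 1.42.0, limma-voom (limma 3.58.1), other scalings and filters, 1 fit of all 11 libraries, an adjusted p under 0.05, another prior count, summed markers, and leaving out each library. The scripts were tested on simulated data. Motifs were read with Python 3.11.15.

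The members and the 18 other gene lists were chosen with earlier results of these data known. Besides all members, the genes named were at most the 3 of a list with the smallest adjusted p below the threshold in DMSO against Sham, the 2 with the smallest p in A10i against DMSO, those at 0 counts in a group, and the 3 genes nearest each member in profile, of which 1 is not reported here. A few listed genes are named only to say what a list holds.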

Additional observations from a re-analysis of the deposited data

Results flagged for a closer look

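In 60 checks of groups of 4 mice, 2 mice stood apart from the other 3 of their group, and chance alone gives about 1 in 20. Relative to pan-leukocyte markers, Sele was at -2.6 (log2) in A10i mouse A119, where the gap to the nearest mouse was 0.864 of the whole range of the group. The range was narrow, from -2.96 to -2.6, and A119 still lay below the lowest DMSO mouse at -2.52. Relative to endothelial markers, Icam2 was at -1.736 in A10i mouse A117, with a gap of 0.875 of the range. Without A117 the log2 difference of this measure between A10i and DMSO mice went from -0.05 to 0.0389.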

How the results depend on the processing

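Between A10i and DMSO mice DESeq2 called 1 of the 10 genes (Sele) in place of 0, and 1 also with all 11 libraries in one fit, an alternative chosen after seeing the data. Leaving out 1 library gave 3 to 6 genes called in A10i against Sham, 5 to 6 in DMSO against Sham and 0 in A10i against DMSO mice. With library size alone the log2 fold changes of Cdh5 and Itgal in A10i against Sham mice were 0.0528 and 0.18. Leaving out 1 library changed the sign of small values, which then ranged from -0.0527 to 0.107 for Icam2 and -0.022 to 0.0897 for Pecam1 (DMSO against Sham), -0.324 to 0.358 for Itgal (A10i against Sham), and -0.0126 to 0.132 for Vcam1 and -0.459 to 0.0402 for Selplg (A10i against DMSO). On the marker-relative scale the ranges were -0.075 to 0.0108 for Cdh5 (DMSO against Sham), -0.247 to 0.279 for Itgal (A10i against Sham) and -0.121 to 0.0389 for Icam2 (A10i against DMSO), all relative to endothelial markers. The cause was not tested. Without 1 infarcted library the exact test of marker-relative levels between A10i and DMSO mice cannot go below 0.0571. No paired analysis was possible because the labels give no replicate numbers shared between groups. Selp rests on 3 to 12 counts per Sham mouse and was dropped from the comparisons with Sham under a minimum of 10 counts in every library.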
